A study of Mus musculus with 96 samples.

Results

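The transcripts of isolated hepatocytes were set against those of liver macrophages (LMs) from the same kind of mouse, the Control animals of a liver clock study. The comparison used 24 of the 96 libraries of the series: 12 labelled Control hepatocyte and 12 labelled Control LM, chosen by their titles and labels, with 3 libraries of each cell type at ZT4, ZT10, ZT16 and ZT22. ZT, zeitgeber time, counts hours from lights on under a 12-hour light and 12-hour dark cycle. The remaining libraries came from mice with hepatocyte deletions, of which RevDKO (Rev-erbα and Rev-erbβ deleted) and RevScapTKO (Rev-erbα, Rev-erbβ and Scap deleted) are used below as further sets of both cell types.

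The Control animals were male C57BL/6J mice with floxed alleles of Nr1d1 and Nr1d2, which encode REV-ERBα and REV-ERBβ, repressors within the clock. At 8 weeks of age they received an adeno-associated virus that drives green fluorescent protein, not Cre, from the hepatocyte-specific TBG promoter. The promoter thus directs expression of the protein in hepatocytes, and no gene is deleted. The study also describes a line with floxed Scap, and which line a Control library came from is not labelled. They then ate a high-fat, high-sucrose diet (D12492) for 4 weeks before both fractions were taken, so this feeding was common to both groups. The labels give liver as the source and name the cell type of each library, but the extraction text of the labels names liver tissue, endothelial cells and Kupffer cells and not hepatocytes. Whether a library is 1 animal is not labelled, so p-values rest on the spread between these libraries, shared in part across genes. That spread may in part be technical.

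Hepatocytes make most plasma proteins, detoxify ammonia through the urea cycle and turn cholesterol into bile acids. Kupffer cells are the macrophages that live in the liver sinusoids, where they clear particles and senescent red cells, present antigen and take up iron. The macrophage lineage depends on the transcription factor PU.1, encoded by Spi1, and hepatocyte identity on factors such as HNF4α, the FOXA proteins and C/EBPα.

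The 2 cell types were deposited in tables that had been normalized apart, so an RPKM value of one could not be set against a value of the other. Each gene was therefore given its percentile within each library, from its place among 25095 gene symbols ordered by a value that is already corrected for transcript length. A percentile of 99 means that 99% of symbols ranked lower in that library, and a difference of 1 point is a difference of 1 percentile. Genes listed at 0 share a tied rank between percentiles 14.3 and 17.5. At the top of the order a large difference in abundance can be less than 1 point, so positions, with 1 the highest, are given there, and tests were repeated on normal scores, the quantiles of a standard normal curve at each percentile, which spread both ends of the order. Sequencing depth is unknown because the deposited values hold no counts. Cell type and table cannot be told apart.

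The hepatocyte libraries formed a tighter set than the LM libraries. Over the 13404 genes tested, the Spearman correlation between 2 hepatocyte libraries lay between 0.932 and 0.984, between 2 LM libraries between 0.739 and 0.962, and across cell types between 0.591 and 0.857. One LM library, ZT22 replicate 3, stood apart: its median correlation with the other LM libraries was 0.844 and with the hepatocyte libraries 0.820. The LM library ZT22 replicate 2 had the lowest median with its own cell type, 0.808. Without ZT22 replicate 3 the counts of genes called, given below, rose to 5771 higher in hepatocytes and 3656 higher in LMs.

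The sequences just upstream of 4 genes are shown because they belong to well-known products of each cell type and hold the motif letters counted below, 2 secreted hepatocyte proteins (Alb, serum albumin, and Fgb, the fibrinogen beta chain) and 2 macrophage proteins (C1qc, a chain of complement C1q, and Lyz2, lysozyme). Each is the 250 bases before the annotated transcript start in mm9, read 5′ to 3′ on the strand of the gene. Capitals mark matches, on either strand, to TTGCNNAA (C/EBP-type) in the hepatocyte pair, and to AGGAAGT (PU.1-type) in the macrophage pair, the last of which reads ACTTCCT on the other strand.
Alb, chr5:90889646-90889895, plus strand: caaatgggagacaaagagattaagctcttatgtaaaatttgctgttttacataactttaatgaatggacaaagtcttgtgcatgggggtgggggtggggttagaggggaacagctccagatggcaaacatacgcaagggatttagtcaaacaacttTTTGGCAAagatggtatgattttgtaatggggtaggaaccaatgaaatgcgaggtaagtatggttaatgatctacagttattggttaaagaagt
Fgb, chr3:82853786-82854035, minus strand: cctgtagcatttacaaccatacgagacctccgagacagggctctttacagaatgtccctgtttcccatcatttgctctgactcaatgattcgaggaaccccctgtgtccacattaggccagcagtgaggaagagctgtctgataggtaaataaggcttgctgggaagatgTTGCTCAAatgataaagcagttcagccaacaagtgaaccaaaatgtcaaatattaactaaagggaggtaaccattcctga
C1qc, chr4:136448830-136449079, minus strand: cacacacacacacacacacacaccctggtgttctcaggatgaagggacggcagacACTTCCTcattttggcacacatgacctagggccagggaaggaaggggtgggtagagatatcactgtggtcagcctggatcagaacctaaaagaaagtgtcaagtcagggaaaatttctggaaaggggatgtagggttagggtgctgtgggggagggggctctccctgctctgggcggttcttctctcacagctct
Lyz2, chr10:116719329-116719578, minus strand: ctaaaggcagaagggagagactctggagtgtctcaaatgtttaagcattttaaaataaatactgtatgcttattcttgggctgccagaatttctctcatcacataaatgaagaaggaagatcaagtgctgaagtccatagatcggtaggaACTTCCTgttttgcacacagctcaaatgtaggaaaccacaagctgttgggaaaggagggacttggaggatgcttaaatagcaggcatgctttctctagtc

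The PU.1-type letters were found more often ahead of genes that ranked higher in LMs. They stood in 7.52% of all 25016 windows of this length and in 7.60% of those of the genes tested. The share was 10.4% for genes called higher in LMs, 6.40% for genes called higher in hepatocytes and 6.86% for genes called in neither direction, and it reached 18.9% (162 of 856) for genes called at least 20 points higher in LMs. Among genes called at least 20 points higher in hepatocytes it was 7.73%. In the marker lists the letters lay ahead of 4 of 10 pan-leukocyte genes (Fcgr1, Lyz2, Ptprc and Tyrobp) and of 2 of 14 Kupffer cell genes (C1qb and C1qc). They also lay ahead of 2 of 12 coagulation and complement genes (Masp2 and Plg) and of 0 of 15 hepatocyte markers.

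The C/EBP-type letters stood in 8.99% of all windows and in 8.05% of those of the genes tested. The share was 8.36% for genes called higher in hepatocytes, 8.39% for genes called higher in LMs and 7.42% for genes called in neither direction. For genes called at least 20 points apart the share was 9.27% of those higher in hepatocytes and 11.8% of those higher in LMs. They lay ahead of 6 of the 12 coagulation and complement genes (C3, C9, F9, Fga, Fgb and Serpinc1) and of 4 of 15 hepatocyte markers (Ahsg, Alb, Apob and Fgb), with Fgb in both lists. They also lay ahead of 2 of 14 Kupffer cell genes (Adgre1 and Slc40a1) and of 1 of 10 pan-leukocyte genes (Cd68). These matches are descriptions of the letters and not evidence of binding.

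The 3 hepatocyte markers stood near the top of both cell types. Alb lay at positions 1 to 3, median 2.5, in hepatocytes and at 1 to 4, median 3, in LMs, with a difference of 0.00299 ± 0.107 points (SE; adjusted p = 0.98, limma with Benjamini-Hochberg adjustment, as for every adjusted p below). The SE comes from limma, which draws the spread of a gene towards that of genes with a like mean percentile. For Alb it is wider than the spread between its own libraries. At the top of the order a high adjusted p on percentiles thus does not show equal rank. Apoa1, the main protein of high-density lipoprotein, held positions 15 to 25, median 16, and 15 to 63, median 22.5 (adjusted p = 0.75, but 0.012 on normal scores). Ttr, the plasma carrier of thyroxine and retinol-binding protein, held positions 23 to 61, median 33.5, in hepatocytes and 40 to 439, median 100, in LMs, and ranked 0.393 ± 0.162 points higher in hepatocytes (adjusted p = 0.04). The libraries of the 2 cell types overlapped for all 3 genes. Hepatocyte transcripts were thus among the most abundant in every library labelled LM, and in bulk samples fewer cells of a type and less RNA per cell cannot be told apart.

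The 4 macrophage markers separated the libraries without overlap, although none was absent from hepatocyte libraries. Clec4f, the C-type lectin that defines mouse Kupffer cells, had lowest, median and highest percentiles over 12 libraries, the order in which sets of 3 percentiles are given from here on, of 78.0, 92.2 and 97.6 in hepatocytes and 99.40, 99.91 and 99.95 in LMs, and was 8.30 ± 0.9 points higher in LMs (adjusted p = 1.8e-07). Vsig4, a complement receptor of resident macrophages, spanned 59.0, 76.6 and 91.6 in hepatocytes against 97.9, 99.66 and 99.84 in LMs, a difference of 22.5 ± 1.44 (adjusted p = 8.4e-11). Every LM library lay above every hepatocyte library for both genes. Csf1r, the receptor for the macrophage growth factor CSF1, had 72.1, 88.7 and 96.2 in hepatocytes against 98.9, 99.85 and 99.94 in LMs, 10.9 ± 1.13 points higher in LMs (adjusted p = 9.5e-08). Adgre1, which encodes the F4/80 antigen, had 61.1, 77.5 and 91.7 in hepatocytes against 98.0, 99.65 and 99.81 in LMs, 20.8 ± 1.24 points higher (adjusted p = 2.9e-11). Percentiles near 100 leave little room, so the spread of the 2 cell types is not comparable on this scale. Within each deposited table the highest Adgre1 value was 7.55 times the lowest in LMs and 14.5 times the lowest in hepatocytes.

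**Figure D1:**
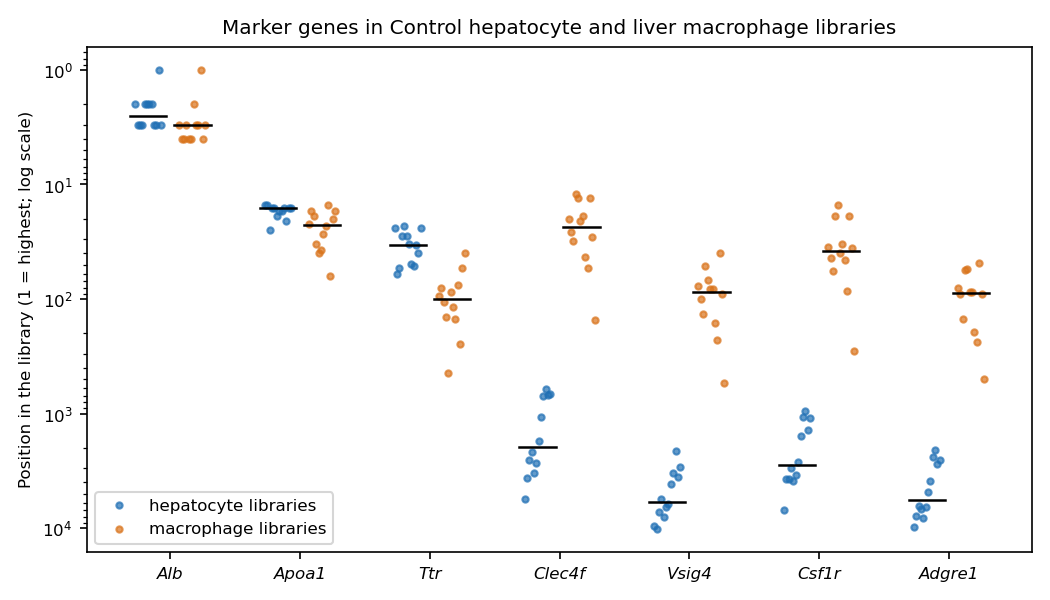
Position of the 7 markers in the 12 hepatocyte and 12 LM libraries, with 1 the highest on a log axis, one point per library with a bar at the group median. Alb, Apoa1 and Ttr lie near the top in both cell types, while Clec4f, Vsig4, Csf1r and Adgre1 form separate groups, with every LM library above every hepatocyte library.

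Across all genes, 8922 of 13404 (66.6%) differed between the cell types at an adjusted p of 0.05. Of these 5473 (40.8%) ranked higher in hepatocytes and 3449 (25.7%) higher in LMs, and the median difference over all genes tested was 2.07 points towards hepatocytes. The LM direction held fewer but larger differences: 856 genes were at least 20 points higher in LMs and 453 at least 20 points higher in hepatocytes. The 12 and 12 libraries did not overlap for 1852 genes (13.8%), 788 (5.88%) higher in hepatocytes and 1064 (7.94%) higher in LMs. These shares are the background for each list below. A gene was tested if its deposited value, in RPKTM (RPKM multiplied by 10), was above 5 in at least 3 of the 24 libraries. Of the genes tested, 781 had fewer than 3 hepatocyte libraries and 1241 fewer than 3 LM libraries above 5, and for genes that passed the filter through 1 cell type in this way the direction was partly set by the filter. Lists with several such members or with members left out are counted below without the filter, where 22.4% of 25095 genes were called higher in hepatocytes and 17.3% higher in LMs.

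**Figure D2:**
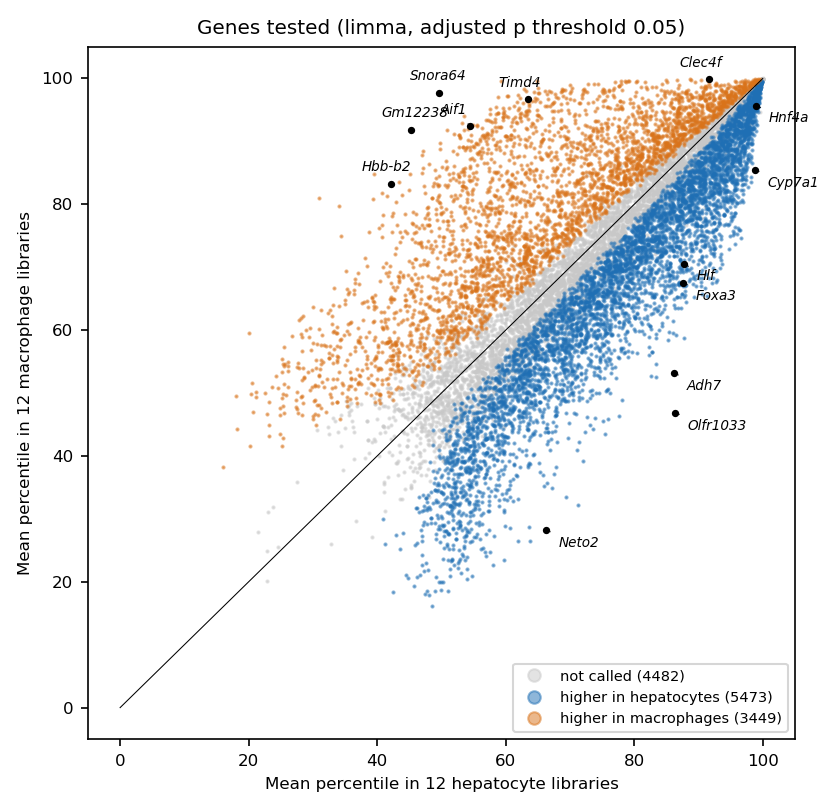
Mean percentile of each gene tested in LMs against hepatocytes, with the genes called in each direction in colour, the line of equal percentile in black and 13 genes named. More genes lie 20 points or more above the line, towards LMs (856), than below it (453).

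The most abundant transcripts were largely the same. Of the 50 genes with the highest mean percentile in each cell type 36 were shared, and of the top 100, 62. Rn45s (the 45S ribosomal RNA precursor, after a kit that removes ribosomal RNA), Alb, Lars2 (mitochondrial leucyl-tRNA synthetase), Apob (the structural protein of very-low-density lipoprotein) and Trf (transferrin) were the leading 5 in both. Trf, for one, lay at positions 4 to 5, median 5, in hepatocytes and 3 to 9, median 6, in LMs. Of the top 100 in LMs, 33 were called higher in LMs and 3 higher in hepatocytes.

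The list of 15 hepatocyte markers held 6 genes called higher in hepatocytes and none higher in LMs, a share close to the background, with a median difference of 0.207 points. On normal scores, where 40.8% of all genes were called higher in hepatocytes and 26.0% higher in LMs, 14 of the 15 were called higher in hepatocytes. The largest difference was in Cyp3a11, a drug-metabolizing cytochrome P450, at 93.7, 98.7 and 99.70 in hepatocytes and 71.4, 90.7 and 99.0 in LMs (8.80 ± 1.73, adjusted p = 0.0002). Apoc3, an inhibitor of lipoprotein lipase, was 4.04 ± 0.829 points higher (adjusted p = 0.0003), and Hnf4a, the nuclear receptor of hepatocyte identity, 3.34 ± 0.783 (adjusted p = 0.001), with no overlap between its libraries. The mean percentile of the list ranged over 99.27 to 99.79 in hepatocyte libraries and 97.2 to 99.60 in LM libraries.

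Coagulation and complement genes showed the same crowding at the top. Of 12 genes, 4 were called higher in hepatocytes on percentiles (F9, C9, C8a and Masp2) and all 12 on normal scores, with a median difference of 0.098 points. F9, coagulation factor IX, had percentiles of 95.7, 97.9 and 98.3 in hepatocytes and 81.9, 91.0 and 98.8 in LMs (5.92 ± 1.08, adjusted p = 9.4e-05). Masp2, a protease of the lectin pathway, did not overlap (98.3 to 98.9 against 90.0 to 98.2). C3, the central complement component, stood at positions 6 to 12, median 8, and 7 to 20, median 10 (adjusted p = 0.94).

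All 8 bile acid genes ranked higher in hepatocytes, with a median difference of 2.25 points. Cyp7a1, the rate-limiting enzyme of bile acid synthesis, was 97.6, 98.9 and 99.56 in hepatocytes and 74.1, 83.1 and 97.1 in LMs, 13.3 ± 2.17 points higher (adjusted p = 2.8e-05). Baat, which conjugates bile acids to taurine or glycine, spanned 97.6, 97.9 and 98.3 in hepatocytes against 75.4, 89.7 and 96.6 in LMs (9.93 ± 1.73, adjusted p = 5.8e-05). The libraries of these 2 genes did not overlap. Among the transporters, Slc10a1, which takes up bile salts from blood, was 3.73 ± 0.781 points higher and Abcb11, which exports them into bile, 1.79 ± 0.444 (adjusted p = 0.00036 and 0.0016).

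In the urea cycle 4 of 6 genes were called higher in hepatocytes (5 on normal scores), with a median difference of 2.07 points. Nags, which makes the allosteric activator of the pathway, had 88.6, 91.2 and 93.0 in hepatocytes against 68.2, 82.2 and 90.0 in LMs (10.03 ± 1.76, adjusted p = 6.1e-05), and Otc, ornithine transcarbamylase, 97.8, 98.2 and 98.8 in hepatocytes against 87.3, 93.1 and 96.9 in LMs (5.36 ± 0.771, adjusted p = 6.5e-06). The Otc libraries did not overlap. Cps1, the entry enzyme, lay at positions 7 to 14, median 9, in hepatocytes and 11 to 29, median 19.5, in LMs and was not called (adjusted p = 0.72).

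Transcription factors rank lower in the order and, on percentiles, a larger share of them was called than of the hepatocyte markers. Of 10 hepatocyte factors 9 were called higher in hepatocytes, with a median difference of 8.61 points, and none higher in LMs. On normal scores 9 of the 10 were called higher in hepatocytes, against 14 of the 15 hepatocyte markers. Foxa3, a forkhead pioneer factor, had 83.7, 88.1 and 91.6 in hepatocytes and 45.3, 67.5 and 81.8 in LMs (20.1 ± 2.60, adjusted p = 1.8e-06), and Nr5a2, the bile acid regulator LRH-1, 90.8, 92.9 and 94.8 in hepatocytes against 73.6, 77.6 and 89.4 in LMs (13.0 ± 1.02, adjusted p = 1.6e-09), both without overlap. Foxa1 and Foxa2 were 21.4 ± 3.52 and 19.8 ± 4.64 points higher (adjusted p = 3.1e-05 and 0.001), each listed at 0 in 1 LM library. Onecut1, also a hepatocyte factor, ranged over 63.1 to 94.2 in hepatocytes and 41.5 to 93.1 in LMs and was not called (adjusted p = 0.86).

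All 10 macrophage factors ranked higher in LMs, with or without the filter, with a median difference of 18.9 points, and 3 of them (Spic, Runx1 and Batf3) passed the filter through the LM libraries. Spi1, which encodes PU.1, had percentiles of 47.3, 53.4 and 63.8 in hepatocytes and 78.8, 94.1 and 96.0 in LMs (36.4 ± 1.85 points higher in LMs, adjusted p = 2.7e-12). Spic, a related factor needed for iron-recycling macrophages, had 15.5, 47.1 and 56.4 in hepatocytes against 70.1, 80.4 and 88.5 in LMs. Its difference of 37.5 ± 3.71 is given without a p, since its direction was partly set by the filter. Irf8, an interferon regulatory factor of the myeloid lineage, had 57.3, 61.5 and 67.5 in hepatocytes against 87.1, 92.4 and 96.0 in LMs (30.5 ± 1.24, adjusted p = 2.4e-13). The libraries of Spi1 and Irf8 did not overlap. Nr1h3, the oxysterol receptor LXRα, is used by hepatocytes too and differed by 5.96 ± 1.01 (adjusted p = 4.3e-05), with overlap between its libraries.

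Every Kupffer cell marker, 14 of 14, ranked higher in LMs, by a median of 20.5 points, and 12 did not overlap. The largest difference was in Timd4, a phosphatidylserine receptor of long-lived resident macrophages, at 55.1, 60.1 and 79.0 in hepatocytes and 87.5, 97.8 and 99.15 in LMs (33.2 ± 1.597, adjusted p = 1.3e-12). Marco, a scavenger receptor, had 48.0, 58.7 and 88.7 in hepatocytes against 84.5, 94.7 and 99.63 in LMs (32.1 ± 2.53, adjusted p = 1.8e-09), with overlap. The smallest differences were in C6, a terminal complement component that hepatocytes also make (0.607 ± 0.191, adjusted p = 0.009), and in Slc40a1, the iron exporter ferroportin, which ranged over 95.4 to 98.4 in hepatocytes and 99.13 to 99.93 in LMs (2.57 ± 0.186, adjusted p = 5.2e-10). Cd5l, a secreted scavenger protein, reached a median of 90.7 in hepatocyte libraries and 99.90 in LM libraries.

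All 10 pan-leukocyte genes were higher in LMs, all 10 without overlap, by a median of 31.0 points. On normal scores the median difference, hepatocytes minus LMs, was -1.68 for this list and -1.65 for the Kupffer cell markers, whose percentiles in LMs lie closer to the top. Aif1, the cytoskeletal protein IBA1, had 48.7, 53.9 and 62.3 in hepatocytes and 83.2, 94.7 and 96.9 in LMs (37.9 ± 1.74, adjusted p = 8.2e-13). Fcer1g and Tyrobp, signalling adaptors of myeloid receptors, differed by 35.8 ± 1.58 and 32.4 ± 1.22 (adjusted p = 5.3e-13 and 1e-13). Ptprc, which encodes the leukocyte antigen CD45, ranged over 57.9 to 82.4 in hepatocytes and 95.6 to 99.59 in LMs. Lyz2, whose upstream sequence is given above, had 63.0, 77.1 and 92.3 in hepatocytes against 98.5, 99.75 and 99.89 in LMs (20.6 ± 1.26, adjusted p = 4.1e-11).

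Antigen presentation genes followed. All 7 genes of the MHC class II list ranked higher in LMs without overlap, by a median of 29.3 points, with an average percentile over the list of 53.4 to 72.3 in hepatocyte libraries and 83.1 to 96.0 in LM libraries. H2-Eb1, a class II beta chain, had 54.9, 63.6 and 77.4 in hepatocytes against 93.2, 98.5 and 99.20 in LMs (32.7 ± 1.11, adjusted p = 2.8e-14). Cd74, the invariant chain, had 65.3, 78.2 and 91.8 in hepatocytes against 98.2, 99.76 and 99.87 in LMs (19.1 ± 1.26, adjusted p = 1.2e-10), and Ciita, the class II transactivator, 45.0, 55.6 and 60.1 in hepatocytes against 68.4, 80.6 and 88.2 in LMs (24.1 ± 2.13, adjusted p = 1e-08). B2m, the light chain of class I molecules that most cells carry, ranged over 98.1 to 99.58 in hepatocytes and 98.2 to 99.80 in LMs.

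Of 15 pattern recognition and cytokine genes 12 were called higher in LMs and none higher in hepatocytes without the filter, with a median over the 15 of 26.0 points towards LMs. The filter left 11 of them, 3 through the LM libraries (Tnf, Ccl3 and Ccl4). Tlr7, a sensor of single-stranded RNA, had 48.3, 56.4 and 63.5 in hepatocytes against 75.0, 91.8 and 96.2 in LMs (33.9 ± 1.90, adjusted p = 1.1e-11), and Tlr4, the lipopolysaccharide receptor, 58.5, 63.7 and 74.6 in hepatocytes against 87.9, 97.0 and 98.4 in LMs (29.6 ± 1.39, adjusted p = 1.1e-12). Both did not overlap. Tnf, the inflammatory cytokine, was listed at 0 in 9 of 12 hepatocyte and 2 of 12 LM libraries, with percentiles of 15.1 to 65.0 in LMs. Il1b, interleukin-1β, spread over 33.8 to 94.1 in LMs and 42.0 to 58.6 in hepatocytes (27.2 ± 4.48, adjusted p = 3.1e-05). The 4 genes below the filter were Ccl2, Cxcl2, Il6 and Il10.

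Lysosomal genes, which every cell uses, were divided. Of 15, 10 were called higher in LMs, 1 higher in hepatocytes and 4 in neither direction, with a median of 1.11 points towards LMs. Ctss, the macrophage cathepsin S, was 19.1 ± 1.30 points higher in LMs (adjusted p = 2e-10) and Npc2, a carrier of lysosomal cholesterol, 12.3 ± 0.685 (adjusted p = 9.6e-12). Npc1, the membrane partner of Npc2, went the other way, 1.96 ± 0.697 points higher in hepatocytes (adjusted p = 0.019). Lamp2 and Ctsl were not called (adjusted p = 0.73 and 0.54).

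Iron and heme genes were divided. Of 11, 5 were called higher in LMs and 2 higher in hepatocytes. Hmox1, the heme oxygenase that degrades heme from red cells, had 58.1, 68.4 and 86.1 in hepatocytes against 95.0, 98.7 and 99.50 in LMs (26.1 ± 1.61 points higher in LMs, adjusted p = 4.9e-11), and Slc11a1, an iron transporter of phagosomes, 53.8, 62.9 and 73.7 in hepatocytes against 88.5, 98.0 and 98.8 in LMs (32.3 ± 1.45, adjusted p = 6.5e-13). Neither overlapped. Hamp, the iron hormone hepcidin, had 90.8, 97.3 and 98.3 in hepatocytes and 67.9, 80.3 and 96.7 in LMs (16.1 ± 3.19 points higher in hepatocytes, adjusted p = 0.00022), and Tfrc, the transferrin receptor, was 4.18 ± 1.23 higher (adjusted p = 0.0059).

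**Figure D3:**
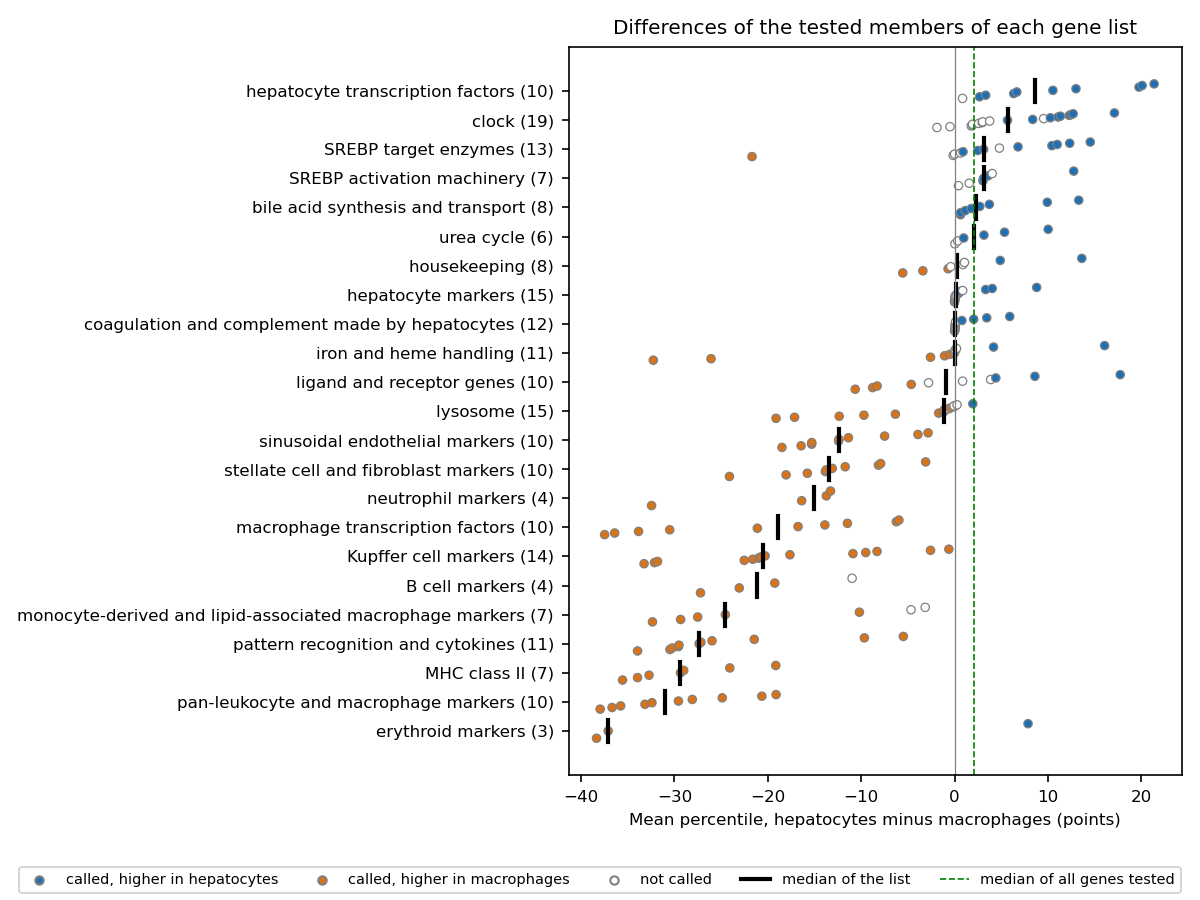
Difference in mean percentile, hepatocytes minus LMs in points, for each tested member of the lists with 3 or more tested genes; fill colour gives the call, the black bar the median of the list and the dashed line the median of all genes tested, 2.07. Lists of macrophage, leukocyte, endothelial and stellate genes lie left of 0, while secretory and metabolic lists lie at or right of 0.

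Other cells of the sinusoid ranked with the LM libraries. All 10 sinusoidal endothelial markers were higher in LMs, by a median of 12.4 points, and so were all 10 stellate cell and fibroblast markers, by 13.4. Pecam1, the endothelial adhesion molecule CD31, had 66.4, 76.6 and 86.7 in hepatocytes and 92.2, 96.3 and 98.5 in LMs (18.5 ± 0.973, adjusted p = 4.6e-12). Col3a1, a fibrillar collagen chain of stellate cells and fibroblasts, had 63.6, 74.6 and 82.7 in hepatocytes against 86.8, 91.9 and 96.8 in LMs (18.0 ± 1.29, adjusted p = 4.6e-10). The mean percentile of the endothelial list ranged over 92.6 to 98.3 in LM libraries and that of the stellate list over 83.3 to 91.7, with no marker of either list at 0 in all libraries of a cell type. The part of these cells in the differences was not tested.

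Other blood cells were lower in the order. Without the filter, 3 of 4 B cell, 3 of 6 T and NK cell and 5 of 6 neutrophil genes were called higher in LMs and none higher in hepatocytes. All 4 B cell genes and the only 2 T and NK cell genes above the filter (Klrb1c and Nkg7) passed it through the LM libraries, as did 1 of 4 neutrophil genes. Cd79b, a chain of the B cell receptor, had 34.7, 46.4 and 50.6 in hepatocytes, where no library exceeded 5 RPKTM, and 54.8, 68.6 and 81.5 in LMs. The hemoglobin genes Hba-a1 and Hbb-b1, products of red cells, were 38.3 ± 1.82 and 37.1 ± 1.82 points higher in LMs (adjusted p = 1.1e-12 and 1.7e-12). Alas2, the erythroid heme enzyme, went the other way, 7.88 ± 1.44 points higher in hepatocytes (adjusted p = 9.5e-05). Of 10 markers of recruited and lipid-associated macrophages, 6 were called higher in LMs without the filter. Ccr2, the monocyte chemokine receptor, ranged over 46.0 to 59.4 in hepatocytes and 48.8 to 93.9 in LMs. Trem2 ranged over 15.5 to 49.6 and 15.1 to 77.2, and it was one of 4 in this list that passed the filter through the LM libraries. Of the cholangiocyte list 1 of 7 genes was tested, Sox9, 9.57 ± 2.72 points higher in hepatocytes (adjusted p = 0.0046).

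Genes of the sterol regulatory element-binding protein (SREBP) pathway were compared because the study asks how hepatocyte SREBP signalling reaches other liver cells. SREBPs are membrane-bound factors that SCAP escorts from the endoplasmic reticulum for cleavage, and INSIG proteins hold SCAP back. Of 7 genes of this machinery 4 ranked higher in hepatocytes (Scap, Insig1, Insig2 and Mbtps1) and none in LMs, with a median of 3.11 points. Insig2 had 93.2, 97.8 and 99.00 in hepatocytes and 67.7, 84.9 and 98.5 in LMs (12.8 ± 1.77, adjusted p = 4.1e-06), and Scap 95.6, 96.5 and 97.7 in hepatocytes against 84.4, 92.6 and 97.4 in LMs (3.57 ± 0.999, adjusted p = 0.0041). Srebf1 and Srebf2, the factors themselves, were not called (adjusted p = 0.19 and 0.12).

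Of 13 SREBP target enzymes and receptors 8 ranked higher in hepatocytes, 1 higher in LMs and 4 in neither direction. Elovl6, a fatty acid elongase, was 12.3 ± 3.19 points higher in hepatocytes (adjusted p = 0.0022) and Sqle, squalene epoxidase of cholesterol synthesis, 11.0 ± 2.08 (adjusted p = 0.00014). Hmgcs1, of the same pathway, had 48.1, 53.2 and 64.3 in hepatocytes against 16.3, 42.4 and 50.4 in LMs (14.5 ± 3.07), and passed the filter through the hepatocyte libraries. Of the 2 stearoyl-CoA desaturases in the list, Scd1 ranked at 98.8 to 99.91 in hepatocytes and 94.6 to 99.85 in LMs and was not called (adjusted p = 0.1), while Scd2 was 54.0, 62.7 and 68.0 in hepatocytes and 74.0, 83.9 and 91.5 in LMs, 21.7 ± 1.496 points higher in LMs without overlap (adjusted p = 2.6e-10). Fasn, fatty acid synthase, was not called (99.21 to 99.93 against 98.9 to 99.92, adjusted p = 0.97).

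A list of 10 signalling genes, ligand and receptor pairs with Jund and Eno1, was divided. In it 3 genes ranked higher in hepatocytes (Inhba, Bmpr1a and Acvr1b), 4 higher in LMs (Pdgfd, Pdgfrb, Tnfsf12 and Jund) and 3 in neither direction, with a median of 0.956 points towards LMs. Inhba, an activin subunit, had 74.0, 80.2 and 88.9 in hepatocytes and 38.5, 63.0 and 79.2 in LMs (17.7 ± 3.14, adjusted p = 6.8e-05). Bmpr1a, a receptor for bone morphogenetic proteins, did not overlap, 86.9 to 91.4 against 77.1 to 85.7 (8.61 ± 0.915, adjusted p = 1.3e-07). Pdgfd, a platelet-derived growth factor, and its receptor Pdgfrb, a mesenchymal marker, were 8.29 ± 1.47 and 10.6 ± 2.12 points higher in LMs (adjusted p = 7.1e-05 and 0.00023). Tnfsf12, the cytokine TWEAK, was 8.77 ± 1.79 points higher in LMs (adjusted p = 0.00029), and its receptor Tnfrsf12a was not called (51.7 to 62.9 against 47.4 to 66.6, adjusted p = 0.06).

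Clock genes, which form the transcriptional feedback loops of the daily oscillator, were found in the libraries of both cell types. Of 19 clock genes 9 ranked higher in hepatocytes (12 on normal scores) and none higher in LMs, with a median of 5.68 points. On percentiles the share higher in hepatocytes was close to the background, 40.8% of all genes tested. Rora, an activator of Arntl, had 96.3, 96.8 and 97.6 in hepatocytes and 79.3, 83.4 and 93.4 in LMs (12.7 ± 1.15, adjusted p = 1.5e-08), and Hlf, a PAR bZIP output factor, 83.9, 87.9 and 90.1 in hepatocytes against 53.9, 71.5 and 80.1 in LMs (17.1 ± 2.25, adjusted p = 2.1e-06). Neither overlapped. Cry1, a repressor of the clock, was 12.5 ± 1.99 points higher in hepatocytes (adjusted p = 2.1e-05). Nr1d1, REV-ERBα, was 0.485 ± 2.70 points lower in hepatocytes and was not called (adjusted p = 0.88).

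The fitted peak times of the clock genes that swung most lay within 2 h of each other in hepatocyte and LM libraries. A cosine of 24 h was fitted to the mean percentiles at the 4 times in each cell type. No error of the peak time was computed. For 12 of the 19 genes the peak-to-trough was 10 points or more in both, and the peaks of these 12 lay a median of 0.901 h and at most 1.82 h apart. Nr1d1 had a fitted peak at 6.6 h in hepatocytes and 6.7 h in LMs, Dbp, an output factor, at 8.0 and 8.9 h, Ciart, a repressor, at 11.0 and 11.0 h, and Cry1 at 18.3 and 18.1 h. Means of Nr1d1 at ZT4 and ZT16 were 91.6 ± 5.43 and 58.4 ± 3.88 (SD, n = 3) in hepatocytes, and 86.6 ± 13.6 and 64.0 ± 7.29 in LMs. No clock gene was called for a different daily pattern in the F test of the cosine and sine terms (smallest unadjusted p = 0.054, Arntl, adjusted p = 0.54). Hepatocyte transcripts were among the most abundant in every LM library, and their part in the LM clock values was not tested.

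**Figure D4:**
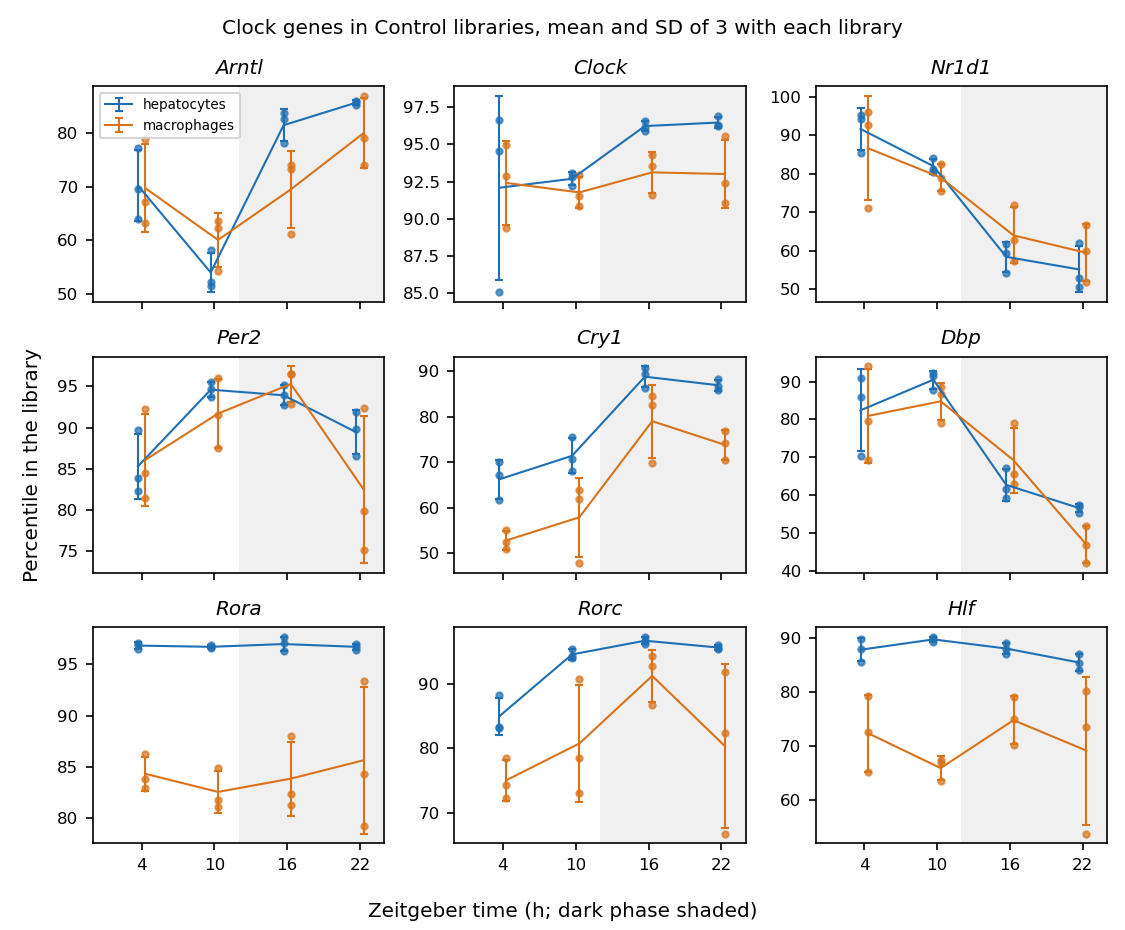
Percentile of 9 clock genes by ZT in hepatocytes and LMs, with points for libraries and lines through the mean of 3, bars being SD. Nr1d1 and Dbp are high at ZT4 and ZT10 and Cry1 at ZT16 and ZT22 in both cell types, while Rora and Hlf lie higher in hepatocytes at each time.

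The daily pattern differed between cell types for 49 of 13404 genes (0.366%) on percentiles, a call that ended under other settings. The count was 0 with the replicate number as a block (limma; 1155 at an unadjusted p under 0.05), 0 on normal scores and 0 with a marker covariate, the latter 2 given below. Of the 49, 47 ranked higher in LMs, 47 had the larger peak-to-trough in hepatocytes (47 on normal scores as well), and 48 had a fitted hepatocyte peak between 16 and 24 h. The 49 were picked by their daily pattern in these same libraries, so the counts describe them and are not a further test. The exceptions in level were Eif5 and Slc16a11, which ranked higher in hepatocytes. The smallest p-values belonged to Aqp1 (a water channel of endothelial and red cells), Cd163 (the hemoglobin scavenger receptor), C1qc, C1qb and H2-Eb1, and 15 of the 49 belonged to the macrophage, leukocyte or MHC class II lists. In hepatocyte libraries C1qc had means of 66.6 ± 4.26 at ZT4, 71.7 ± 1.80 at ZT10, 84.0 ± 6.44 at ZT16 and 89.5 ± 2.07 at ZT22 (SD, n = 3), with 99.71 ± 0.0845 and 99.21 ± 0.929 in LMs at ZT4 and ZT22, on the compressed part of the scale. Adgre1 in hepatocyte libraries had means of 68.0 ± 6.61, 71.4 ± 3.36, 85.2 ± 4.92 and 90.2 ± 1.42 at the 4 times.

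The macrophage marker level in the hepatocyte libraries followed the time of sampling over the 14 Kupffer cell markers. The mean percentile of that list was 72.7 ± 4.50 at ZT4, 76.4 ± 1.77 at ZT10, 84.6 ± 4.21 at ZT16 and 89.7 ± 2.08 at ZT22 in hepatocyte libraries (SD, n = 3), and 98.6 to 99.2 at the 4 times in LMs. The narrow range in LMs does not show a steady level, since percentiles are compressed there: for the 14 markers the highest RPKTM value was a median of 8.94 times the lowest over the 12 LM libraries and 12.3 times over the 12 hepatocyte libraries. The pan-leukocyte list went from 58.3 ± 4.14 at ZT4 to 75.3 ± 2.13 at ZT22, the sinusoidal endothelial list from 76.8 ± 2.49 to 89.1 ± 1.88, the stellate list from 68.3 ± 2.62 to 80.2 ± 2.06 and the MHC class II list from 55.9 ± 2.58 to 70.2 ± 1.69. Each of these 5 lists had its lowest mean at ZT4 and its highest at ZT22 in the hepatocyte libraries. Hepatocyte markers in the LM libraries had means of 98.0 ± 0.680 at ZT4, 97.8 ± 0.683 at ZT10, 99.2 ± 0.426 at ZT16 and 98.5 ± 0.994 at ZT22. With the marker level of each library as a covariate, 0 of 13404 genes were called for a different pattern (limma; 556 at an unadjusted p under 0.05). On normal scores 0 were called as well (limma; 1036 at an unadjusted p under 0.05), against 1262 (9.42%) on percentiles. The covariate itself moved with time in the hepatocyte libraries, so its effect and that of the time of day cannot be told apart.

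**Figure D5:**
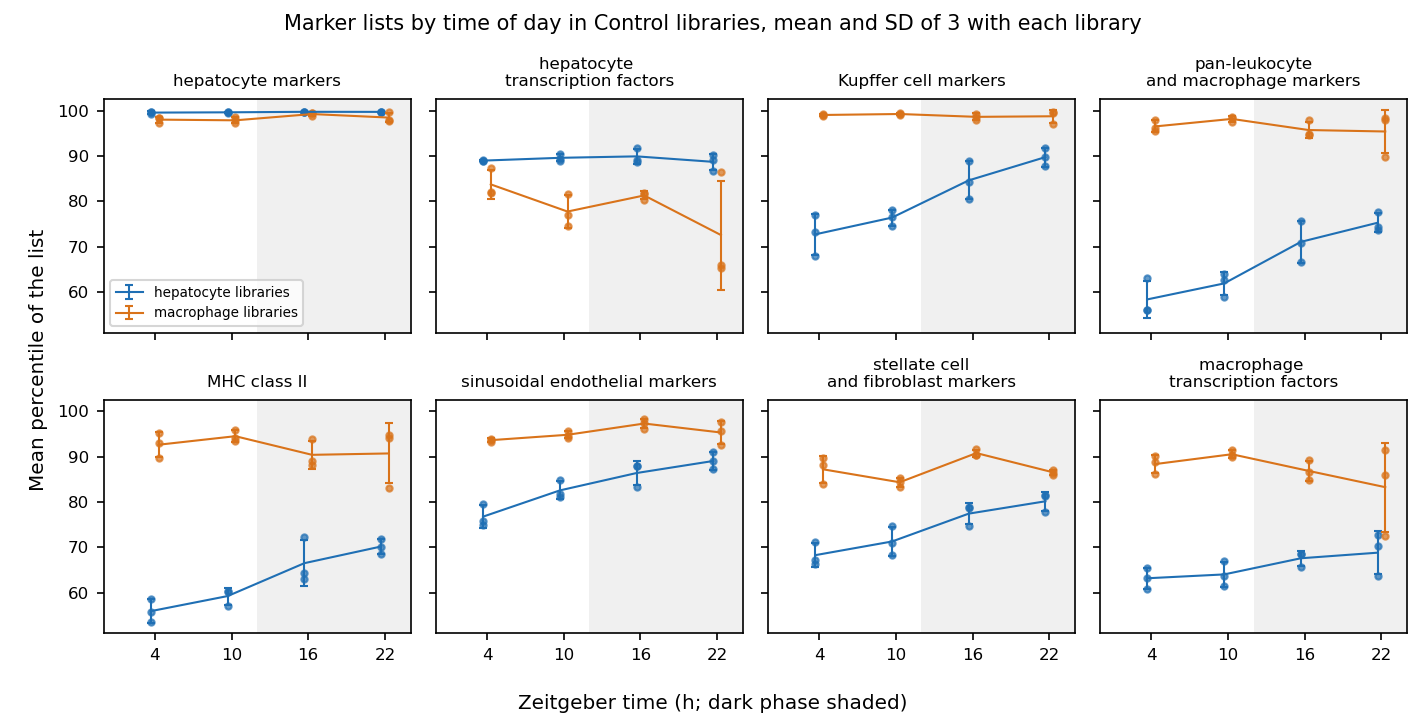
Mean percentile of marker lists by ZT in hepatocyte and LM libraries, with points for libraries and lines through the mean of 3, bars being SD. In hepatocyte libraries the Kupffer cell, leukocyte, endothelial, stellate and MHC class II lists are lowest at ZT4 and highest at ZT22. In LM libraries the Kupffer list lies at 98.6 to 99.2, where percentiles leave little room for change.

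With ZT4 and ZT10 alone, 4729 genes were called higher in hepatocytes and 3304 higher in LMs, and with ZT16 and ZT22 alone 3045 and 2386. At the later times macrophage marker levels in hepatocyte libraries were higher. The LM libraries ZT22 replicates 2 and 3 also had the lowest median correlations with their own cell type, 0.808 and 0.844. The part of either in the lower counts was not tested. Each pair of times held 12 libraries, 6 of each cell type. Of the genes called with all 4 times in the hepatocyte direction, 82.6% were called from the earlier times and 54.9% from the later times, and in the LM direction 86.8% and 67.8%.

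The comparison was repeated within 2 mutants. In RevDKO libraries 8276 of 13916 genes (59.5%) were called, 4942 higher in hepatocytes and 3334 higher in LMs. In RevScapTKO libraries 8264 of 13179 (62.7%) were called, 4722 higher in hepatocytes and 3542 higher in LMs. Of the genes called higher in hepatocytes in Control and tested in RevDKO, 4237 of 5416 (78.2%) were called the same way and 1 the opposite way, and of those called higher in LMs 2496 of 3369 (74.1%) and 1. In RevScapTKO the counts were 4090 of 5289 (77.3%) and 6, and 2699 of 3366 (80.2%) and 5. None of these libraries is part of the Control comparison.

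SREBP genes were also set side by side in RevScapTKO, where Scap is deleted in hepatocytes. Of 18 SREBP genes tested in both genotypes, 7 had a difference of the opposite sign to Control (Scap, Srebf1, Srebf2, Sqle, Fdft1, Fasn and Scd1), and 3 of the 7 passed the test in RevScapTKO. Srebf1, Srebf2, Fasn and Scd1 were not called in Control, so their sign there is uncertain. Scap alone was called in both genotypes with opposite signs. Among all genes called higher in hepatocytes in Control, 6 of 5289 were called the opposite way. The share of sign changes over all genes was not counted, so 7 of 18 is not shown to be particular to SREBP genes. Of the 13 target enzymes and receptors, 11 passed the filter in RevScapTKO. For Scd1 the difference, hepatocytes minus LMs, was -23.7 points there (adjusted p = 1.6e-07) against 0.648 points in Control. For Srebf2 it was -5.75 points (adjusted p = 0.00098) against 1.58, and for Scap -2.86 (adjusted p = 0.025) against 3.57. Sqle, higher in hepatocytes in Control, had -1.10 (adjusted p = 0.71). The change between genotypes itself was not tested.

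The largest differences towards hepatocytes, among genes whose libraries do not overlap and whose sign was the same at all 4 times, were in genes listed at 0 in 1 to 9 of the 12 LM libraries. Of the 10 named, 9 passed the filter through the hepatocyte libraries, all but Adh7, so that they ranked higher there was partly set by the filter, and their differences are given without a p. Olfr1033, an olfactory receptor gene, had 78.1, 86.7 and 93.0 in hepatocytes and 14.3, 53.4 and 56.0 in LMs (a difference of 39.5 ± 4.36). Neto2, an auxiliary subunit of glutamate receptors, had 56.3, 64.8 and 77.5 in hepatocytes against 15.1, 17.3 and 52.0 in LMs (38.1 ± 3.43), where 7 of the 12 values were tied at 0. The next were Vmn1r90, a vomeronasal receptor gene, B230217O12Rik, Gm29571, Zfp977, Srd5a2 (a steroid 5-alpha reductase), 9030619P08Rik, Adh7 (an alcohol dehydrogenase) and C1ql3, with differences between 32.8 and 37.4 points. Receptor genes of these families have close copies, and how reads shared by copies were counted is not given in the sources used here.

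The largest differences towards LMs were in small RNA genes and in genes of myeloid and red cells. Of the 10 named, 6 passed the filter through the LM libraries (Snora69, Gm12238, Snora75, Mir3068, Hbb-b2 and Rgs1). Snora69 was listed at 0 in 5 of 12 hepatocyte libraries and ranked at 64.6, 81.8 and 93.9 in LMs (50.02 ± 4.75 points higher). Snora64 had 41.3, 48.9 and 55.1 in hepatocytes against 93.1, 99.0 and 99.59 in LMs (48.1 ± 1.35, adjusted p = 1.2e-15). Gm12238, Snora75, Mir3068 and Snora62 were also among the 10 largest, beside Rgs10, Rgs1 (regulators of G protein signalling in immune cells), Hbb-b2 (a hemoglobin chain) and Lrrc25, with differences between 40.8 and 46.7 points. Small nucleolar and microRNA genes lie inside host genes whose reads they can share, and the strand setting of the counting is not stated, so these values are uncertain. The hemoglobin genes are near-identical copies, and their split is uncertain too.

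Housekeeping genes, often used as references, were divided too. Of 8 genes, 2 ranked higher in hepatocytes (Gapdh and Tbp), 3 higher in LMs (Actb, Hprt and Rplp0) and 3 in neither direction. Gapdh, a glycolytic enzyme, had 59.3 to 84.8 in hepatocytes and 41.2 to 72.6 in LMs (13.6 ± 2.36, adjusted p = 5.3e-05). Its value was above the minimum of the filter in 12 hepatocyte and 7 LM libraries. How reads shared by gene copies were counted is not given in the sources used here, so the Gapdh difference is uncertain. Rplp0, a ribosomal protein, was 3.39 ± 0.496 points higher in LMs (adjusted p = 8e-06). Ppia, a peptidyl-prolyl isomerase, and B2m were not called (adjusted p = 0.56 and 0.061).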

How the data were processed

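RNA was measured by sequencing in 12 Control hepatocyte and 12 Control LM libraries. The authors removed ribosomal RNA, made stranded libraries, aligned reads to mm9 with STAR and summarized RefSeq transcripts with HOMER (versions and strand setting not given in the sources used here). The deposited values are RPKM multiplied by 10 (RPKTM), quantile normalized by the authors within each of 2 tables, so every library of a table holds the same set of values and 11154 (hepatocyte table) or 11373 (LM table) of 42322 transcripts are at 0.

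For each of 25095 symbols the transcript with the highest mean in the hepatocyte table was kept and ranked within each library, as 100 times (rank minus 0.5) over the number of symbols, with ties sharing their mean rank. Genes above 5 RPKTM in at least 3 of 24 libraries were tested with limma 3.58.1 (R 4.3.3, trend), with 1 mean per cell type and ZT and no replicate block; the contrast, hepatocyte minus LM, was averaged over the 4 ZT, and p-values were adjusted by Benjamini-Hochberg over all genes tested (threshold 0.05). The difference in 24 h cosine and sine terms was tested by an F test. Values of a list are described by counts and medians without a test. The scripts were tested on simulated data. Ranking and permutations ran in Python 3.11.15 (pandas 2.3.3, numpy 2.4.6, scipy 1.17.1), and figures were drawn with matplotlib 3.10.9. Upstream sequences came from the mm9 genome, with coordinates counted from 1, as transcript starts of the tables matched that count (49.7% of 28284 starts, 4.08% counted from 0).

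Genes named are the 7 markers, list members, the 10 genes with the largest difference in each direction among called genes with no overlap of libraries and 1 sign at all 4 ZT, the 5 highest in each cell type, and the 5 with the smallest p for a different daily pattern. The comparison, lists and markers were chosen with earlier results of these data known. Eif5 and Slc16a11 were named after their values were seen. Counting error cannot be given because depth is unknown. Some members of the lists are counted but not reported here by name.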

Additional observations from a re-analysis of the deposited data

Results flagged for a closer look

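The difference in daily pattern between hepatocytes and LMs was the result that met a rule for a closer look, because the effect of time of day itself differed between the cell types by the F test of the cosine and sine terms. It was called for 49 genes, and the adjusted p-values (limma) were 0.00095 for Aqp1, 0.0039 for Cd163, 0.0039 for C1qc, 0.0039 for C1qb, 0.0039 for H2-Eb1, 0.0042 for Adgre1, 0.023 for Vsig4 and 0.038 for Clec4f. All 8 ranked higher in LMs, and their fitted hepatocyte peak lay between 16 and 24 h. The mean percentile of the 14 Kupffer cell markers in hepatocyte libraries moved with the same times, from 72.7 ± 4.50 at ZT4 to 89.7 ± 2.08 at ZT22 (SD, n = 3). Without the LM library ZT22 replicate 1 the count was 745, and with the marker level as a covariate, added after the values were seen, it was 0 (556 at an unadjusted p under 0.05). It was also 0 with the replicate number as a block and on normal scores.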

How the results depend on the processing

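The count of genes called, 8922 of 13404 (66.6%), was 17748 of 26474 (67.0%) when all transcripts were ranked (10775 higher in hepatocytes, 6973 higher in LMs), a larger number tested at a near equal share, and 5431 with ZT16 and ZT22 only (3045 higher in hepatocytes). Leaving out 1 library gave 8604 to 9427 in all, 5245 to 5771 higher in hepatocytes and 3329 to 3656 higher in LMs. An exact permutation test over libraries within each ZT (160000 assignments) called 9114, of which 8765 were called by limma. The count of different daily patterns, 49, was 0 on normal scores, 83 over all transcripts, 160 in RevDKO, 1 in RevScapTKO and 964 without the LM libraries ZT16 replicate 1 and ZT22 replicate 1, and with the marker level as a covariate 0. Leaving out 1 library gave 28 to 745, with 107 without hepatocyte ZT4 replicate 3, 92 without hepatocyte ZT16 replicate 1, 28 without LM ZT10 replicate 2, 31 and 29 without LM ZT16 replicate 2 and 3, and 745 and 141 without LM ZT22 replicate 1 and 3. The cause was not tested.

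Replicate numbers are shared in the labels, and same-numbered libraries deviated together with r from 0.0226 to 0.156, above 0.1 in 2 of 12 cases. The main test took no pairs, although each of these correlations was positive. With the replicate block 5420 genes were called higher in hepatocytes and 3418 higher in LMs (97.2% and 97.6% of those called without it), and 0 had a different pattern. In 11 of 12 cases a hepatocyte library correlated best with its own number. Same-numbered libraries thus deviated together, and the main test left this shared part of the spread out of account. The calls of a different daily pattern depended on that choice, since 0 were made with the block. Whether same-numbered libraries share an animal or a batch is not labelled and was not tested, so whether they are pairs is not known.

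The direction turned in RevScapTKO for C6 (0.13), Reln (2.64), Scap (-2.86), Srebf2 (-5.75), Sqle (-1.10), Fdft1 (-3.06), Scd1 (-23.7) and Nr1d1 (6.28), and in RevDKO for Nr1d1 (5.08), each as hepatocyte minus LM points. A gene was listed if called in Control or in the mutant, so it need not be called in both. Nr1d1 is itself deleted in hepatocytes of both mutants, and Scap in those of RevScapTKO. Sqle and Fdft1 were not called in RevScapTKO (limma, adjusted p = 0.71 and 0.2). The settings with ZT4 and ZT10 only, ZT16 and ZT22 only, and the covariate were added after the values were seen. Depth is unknown, so it limits low genes in an unknown way.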
